A study of Mus musculus with 23 samples.

Results

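The acrosome is a secretory vesicle that caps the sperm nucleus, and 10 genes for its formation and content were followed in testes of mice and in testicular explants grown in vitro. The members were chosen by name as Acr, Acrbp, Spink2, Acrv1, Zp3r, Zpbp, Zpbp2, Spaca1, Spaca4 and Dpy19l2, which are 10 of the 27466 genes in the count table, and each was found once. All animals were wild-type CD-1 mice, an outbred strain. In vivo testes were taken at 6.5 dpp (days postpartum), at 10.5 dpp, at 22.5 dpp and at 36.5 dpp. Explants of 6.5 dpp testes, fresh or thawed, were cultured until D4, D16 or D30, which match the 3 later in vivo ages in turn. The medium of every culture was α-MEM with KnockOut serum replacement, gentamicin and retinol. The RNA was polyA RNA of whole testes or of pooled explants, holding germ and somatic cells, and the necrotic centre of each cultured explant had been cut away before extraction.

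The in vivo libraries numbered 4 at 6.5 dpp (1 of fresh tissue, 3 of tissue thawed after controlled slow freezing, CSF), 3 each at 10.5 and 22.5 dpp, and 2 at 36.5 dpp. The explant libraries numbered 3 at D4, 2 at D16 and 4 at D30, of which 1 was CSF. The 21 libraries held 28351546 to 69029328 counted reads each, and no marker gene of the germ and somatic cell lists used below was at 0 throughout a group. Of the 23 deposited columns, 6.5 dpp fresh replicate 3 equalled replicate 2 at all 27466 genes and was counted with it as 1 library. The library labelled 6.5 dpp fresh replicate 1 stood apart from its group. Its Spearman rho across genes was 0.985 with D16 fresh replicate 1 and 0.928 with 6.5 dpp fresh replicate 2, and it was left out of every comparison unless stated. Whether the replicates came from separate animals or cultures at each stage is not given in the labels. The paper describes a pool of explants for each biological replicate of the cultures. The p-values set each difference against the spread between libraries, estimated in 1 fit over all 7 groups, and speak for these samples only.

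During spermiogenesis, round spermatids build the acrosome from Golgi vesicles, which fuse, spread over the nucleus and stay fixed to it by a cytoskeletal plate, the acroplaxome, and by proteins of the nuclear envelope. The vesicle stores proteases and hydrolases that are released by exocytosis when sperm meet the egg coat, the zona pellucida. Some of its proteins are already transcribed in pachytene spermatocytes, before the vesicle has its final form, and others in spermatids. Acrosin (Acr) is the main protease of the vesicle, Acrbp binds its zymogen, and Spink2 is a protease inhibitor. Acrv1 (also called SP-10) and Zp3r (also called sp56) are proteins of the acrosomal matrix, and Zpbp and Zpbp2 are related zona-binding proteins. Spaca1 and Spaca4 are proteins of the acrosomal membrane, and Dpy19l2 lies in the inner nuclear membrane, where it holds the acrosome to the nucleus.

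Promoter sequences were available from RefSeq (GRCm38.p6) for 9 members, all but Acr. The 250 bases before the start of transcription are printed for 4 of them because they hold a match to a short motif that was searched on both strands. Acrbp and Zpbp2 were among the members already high at 22.5 dpp, and Spaca1 and Acrv1 among those with a large step between 22.5 and 36.5 dpp. The window of Acrbp is chr6:125049677-125049926 on the + strand, that of Zpbp2 chr11:98550847-98551096 on the + strand, that of Spaca1 chr4:34050066-34050315 on the - strand and that of Acrv1 chr9:36692970-36693219 on the + strand. Capitals mark the motif matches.
Acrbp: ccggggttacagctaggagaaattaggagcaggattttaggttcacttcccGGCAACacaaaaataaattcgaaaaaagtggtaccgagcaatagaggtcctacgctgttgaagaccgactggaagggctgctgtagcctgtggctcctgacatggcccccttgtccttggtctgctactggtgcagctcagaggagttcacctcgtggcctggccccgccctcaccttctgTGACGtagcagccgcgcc
Zpbp2: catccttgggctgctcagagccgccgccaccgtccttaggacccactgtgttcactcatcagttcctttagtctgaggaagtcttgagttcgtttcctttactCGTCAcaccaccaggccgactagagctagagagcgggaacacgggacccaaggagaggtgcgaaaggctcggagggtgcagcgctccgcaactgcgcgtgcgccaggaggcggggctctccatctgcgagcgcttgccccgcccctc
Spaca1: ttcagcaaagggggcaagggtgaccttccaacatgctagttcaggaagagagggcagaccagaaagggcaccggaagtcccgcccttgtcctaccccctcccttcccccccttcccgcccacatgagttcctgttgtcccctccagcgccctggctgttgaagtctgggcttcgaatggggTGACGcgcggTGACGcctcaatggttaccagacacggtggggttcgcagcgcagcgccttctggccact
Acrv1: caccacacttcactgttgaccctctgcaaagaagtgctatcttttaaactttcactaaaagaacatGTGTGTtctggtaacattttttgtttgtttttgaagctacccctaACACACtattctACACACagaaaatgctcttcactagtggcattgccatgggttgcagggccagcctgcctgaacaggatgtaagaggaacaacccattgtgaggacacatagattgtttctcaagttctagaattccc

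The core of the cyclic AMP response element, TGACG or CGTCA, was present in the windows of Acrbp (18 bases before the start), Zpbp2 (147) and Spaca1 (69 and 59), that is in 3 of 9 windows, against 17.8% of the 32851 mouse promoter windows of this length. CREM, the activator known to drive many spermatid genes, binds such elements. The repeat GTGTGT or ACACAC occurred in 1 of 9 windows, that of Acrv1, at 184, 139 and 127 bases before the start, against 14.9% of all windows. The core of the site of RFX factors, GTTGCC or GGCAAC, occurred in 1 of 9 windows, that of Acrbp, 199 bases before the start, against 10.4% of all windows. The TATA box TATAAA or TTTATA (12.4% of all windows) and the full element TGACGTCA (1.55%) were found in 0 of 9 windows. The full element contains the core, and no other pair of these motifs overlapped in the printed windows. The GC content of the printed windows was 55.6% for Acrbp, 62.4% for Zpbp2, 62.4% for Spaca1 and 42.0% for Acrv1, with a median of 52.4% over all windows. The windows of Spink2 and Zpbp lay within the annotated span of their genes. Those of Zp3r, Dpy19l2 and Spaca1 overlapped that span in part. So the counts of 9 windows include some that do not lie wholly before the gene. These matches describe letters and show no binding.

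The members were nearly silent or low at 6.5 dpp, at 10.5 dpp and at D4. Levels are given in CPM, the count of a gene scaled to the total count of its library. In the 10 libraries of 6.5 dpp, 10.5 dpp and D4, Acr ran from 0.0418 to 0.222 CPM, Acrv1 from 0 to 0.208 CPM, Zp3r from 0 to 0.0728 CPM and Spaca4 from 0 to 0.0697 CPM. Zp3r at 6.5 dpp and D4, and Spaca4 at 6.5 dpp, 10.5 dpp and D4, had at most 3 counts in each library, the floor used here, so no fold is given against these groups. The libraries carried no molecular identifiers, and the floor was a chosen limit that measured no error. The other members had a low but counted level at these ages: the group means of Zpbp lay between 4.70 and 5.85 CPM, those of Acrbp between 3.57 and 4.24 CPM and those of Spaca1 between 2.31 and 2.91 CPM.

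**Figure D1:**
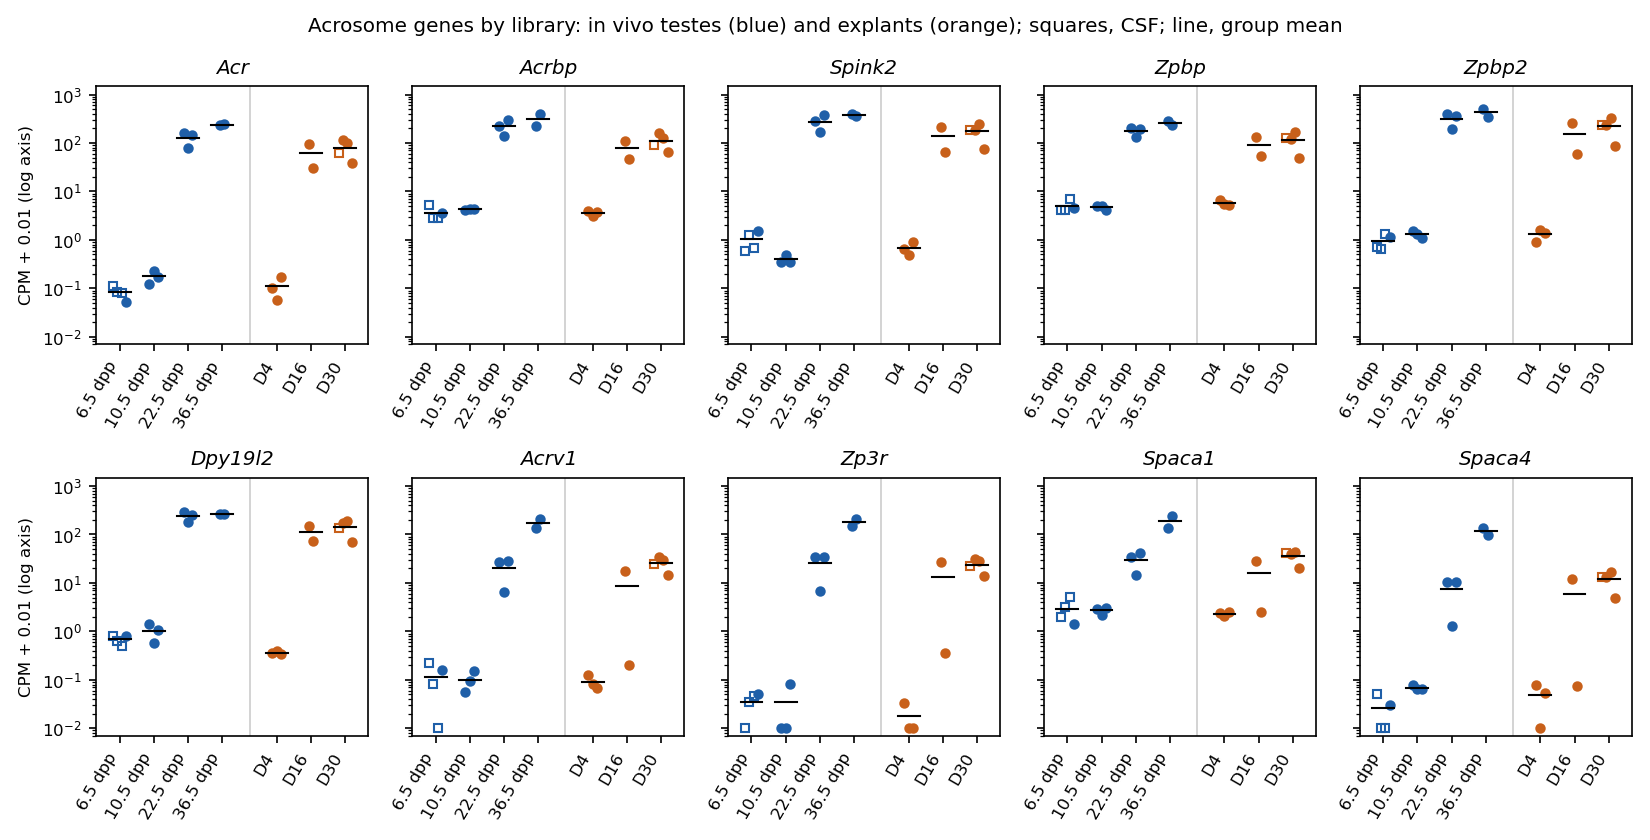
Level of each gene in each library, as CPM + 0.01 on a log axis, for in vivo testes (blue) and explants (orange), with CSF libraries as open squares and the group mean as a line; a library at 0 sits at 0.01. Acr, Acrbp, Spink2, Zpbp, Zpbp2 and Dpy19l2 were above 78 CPM in every 22.5 dpp library, while Acrv1, Zp3r, Spaca1 and Spaca4 stepped up again at 36.5 dpp and were low in 1 of the 2 D16 libraries.

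Between 22.5 and 10.5 dpp the question is which members rise as the first wave of germ cells completes meiosis. All 10 members were higher at 22.5 dpp (10 of 10 called at an adjusted p under 0.05, edgeR's quasi-likelihood test with Benjamini-Hochberg adjustment over 19255 genes), where 33.6% of all genes tested were called higher and 27.9% lower. Every 22.5 dpp library lay above every 10.5 dpp library for each member. Dpy19l2 rose by 8.22 ± 0.49 (log2 fold change ± SE, adjusted p = 6.09e-10), from 0.995 ± 0.419 to 242 ± 60.7 CPM (mean ± SD, n = 3 in each group). Spaca1 had the smallest fitted step, 3.81 ± 0.70 on the log2 scale (adjusted p = 1.44e-04), from a base of 2.699 ± 0.468 CPM. One step earlier, between 10.5 and 6.5 dpp, 0 of 10 members were called in the same fit (0.675% of genes were called higher and 0.467% lower, and 1 member, Spink2, had an unadjusted p under 0.05). DESeq2 also called 0 of 10 there.

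Between 36.5 and 22.5 dpp, when round and elongating spermatids accumulate, the members parted. Acrv1, Zp3r, Spaca1 and Spaca4 rose strongly, Acr and Zpbp rose by a small step, and Acrbp, Spink2, Zpbp2 and Dpy19l2 were not called. In all, 6 of 10 were called higher and 0 lower, against 23.3% of genes called higher and 27.5% lower. With the 6.5 dpp fresh replicate 1 kept in its labelled group, whose spread the fit then shares, 1 of 10 was called here (Spaca1, adjusted p = 0.0258).

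Among the acrosomal matrix and zona-binding proteins, Acrv1 stood at 27.4, 6.34 and 27.9 CPM in the 22.5 dpp libraries and at 135 and 212 CPM at 36.5 dpp. The groups were well apart, and the log2 fold change was 3.55 ± 0.92 SE (adjusted p = 0.00411). Zp3r followed the same course, with 34.6, 6.76 and 34.96 CPM at 22.5 dpp and 148 and 207 CPM at 36.5 dpp. Its log2 fold change was 3.27 ± 0.93 SE (adjusted p = 0.00750), a 9.62-fold difference. In both genes 22.5 dpp replicate 2 was the low library of its group. Zpbp was much closer between the ages, at 200, 134 and 192 CPM against 287 and 235 CPM. The groups did not overlap, but the log2 fold change was only 1.06 ± 0.43 SE (adjusted p = 0.0467), and the call was kept in 8 of 30 alternative settings. Among those that left out 1 library it held only without 6.5 dpp CSF replicate 3, either D16 library, D30 fresh replicate 2 or D30 fresh replicate 3. Zpbp2 had 389, 198 and 366 CPM at 22.5 dpp and 512 and 349 CPM at 36.5 dpp, so its groups overlapped, and the log2 fold change of 0.92 ± 0.54 SE was not called (adjusted p = 0.164).

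The membrane proteins Spaca1 and Spaca4 both belonged to the strong risers. Spaca1 went from 35.01, 14.7 and 41.4 CPM to 139 and 239 CPM, with a log2 fold change of 3.12 ± 0.70 SE (adjusted p = 0.00144). Spaca4 went from 10.6, 1.29 and 10.5 CPM to 134 and 97.5 CPM. The fitted change of Spaca4 was the highest of the 10, 4.41 ± 1.04 SE on the log2 scale (adjusted p = 0.00202), and 22.5 dpp replicate 2 was again the low library.

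Acr, the protease itself, had 161, 78.3 and 149 CPM at 22.5 dpp and 231 and 245 CPM at 36.5 dpp. Its 36.5 dpp libraries lay above all 22.5 dpp libraries, by 1.36 ± 0.46 SE on the log2 scale (adjusted p = 0.0205). The call on Acr was lost without 22.5 dpp replicate 2 (log2 fold change 1.06, adjusted p = 0.0880). Without 36.5 dpp replicate 1 (adjusted p = 0.0616) or replicate 2 (adjusted p = 0.0737) it was lost as well. Acrbp, its binding partner, ran from 137 to 304.5 CPM at 22.5 dpp and stood at 221 and 399 CPM at 36.5 dpp, and the difference was not called (log2 fold change 0.98 ± 0.42 SE, adjusted p = 0.0622). Acrbp shares 975 exon bases with Gm44597 on the same strand, and its counts are uncertain to that extent. It was called in 7 of 30 alternatives, with DESeq2 (adjusted p = 0.0275), with RLE factors, and without 22.5 dpp replicate 3 (0.0294), 36.5 dpp replicate 1 (0.0443), D16 replicate 1 (0.0451), D16 replicate 2 (0.0449) or D30 replicate 3 (0.0448). Spink2, the inhibitor, had 289, 171 and 371.5 CPM against 393.5 and 354 CPM, with overlapping libraries and no call (0.91 ± 0.50 SE, adjusted p = 0.133). Dpy19l2, the anchor protein, differed least, with 297.5, 177 and 250.5 CPM against 263 and 259 CPM. Its 95% interval of the log2 fold change ran from -0.21 to 1.41 (adjusted p = 0.204).

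**Figure D2:**
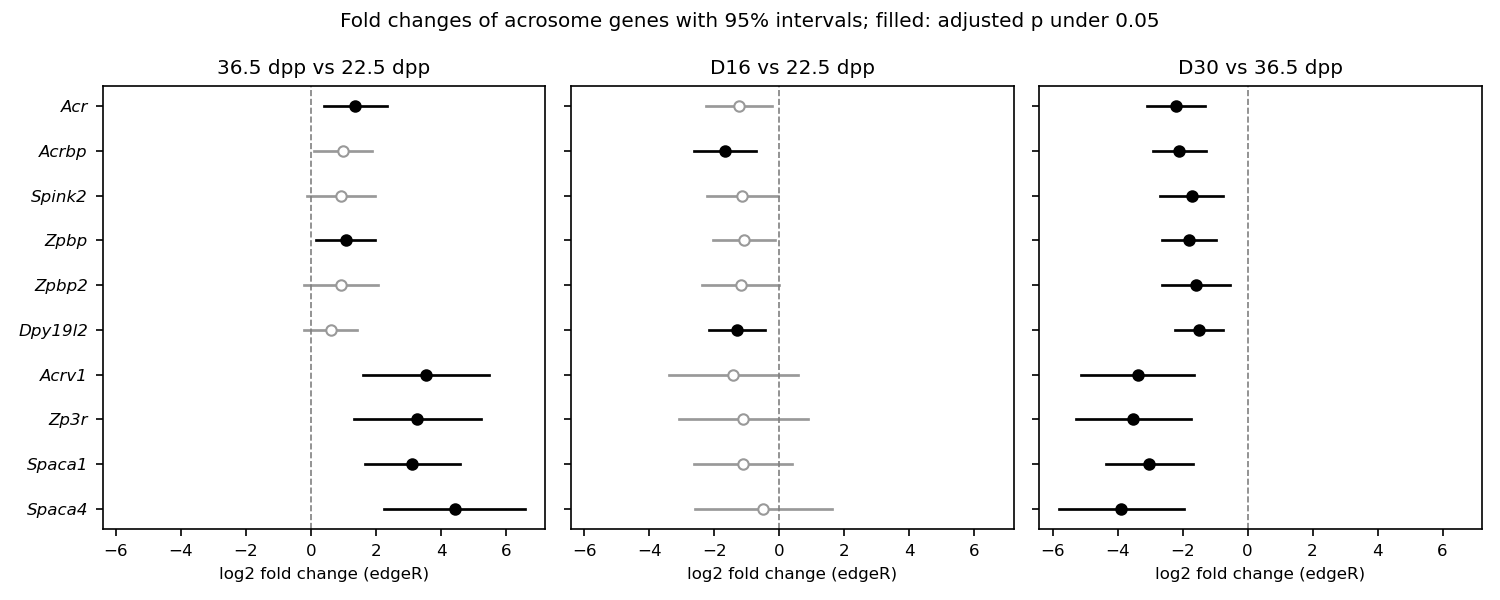
Log2 fold change of each gene (point) with its 95% interval (line) in 3 comparisons, filled black where the adjusted p was under 0.05. Acrv1, Zp3r, Spaca1 and Spaca4 lie between 3.12 and 4.41 in the first panel, and all 10 genes lie below 0 in the third, from -1.50 to -3.88.

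These folds depend on the scaling. The median log2 fold change of all genes between 36.5 and 22.5 dpp was -0.13 with the TMM factors used, 0.07 with RLE factors and -0.63 with library size alone, and between D30 and 36.5 dpp it was -0.03, -0.29 and 0.60. All 10 members kept their sign under the 3 scalings in both comparisons. With library size alone, Acr (log2 fold change 0.88, adjusted p = 0.0865) and Zpbp (0.57, 0.217) were no longer called between 36.5 and 22.5 dpp, which left 4 of 10, and 9 of 10 were called between D30 and 36.5 dpp. Of all calls, 45.9% were higher at 36.5 than at 22.5 dpp with TMM, 56.0% with RLE and 27.9% with library size alone. The same share was 48.0%, 40.0% and 65.8% for D30 against 36.5 dpp, and 54.3%, 43.9% and 68.0% for D16 against 22.5 dpp. With library size alone the share fell to 43.8% from 54.6% for 22.5 against 10.5 dpp, to 50.1% from 60.7% for D4 against 10.5 dpp, and moved to 69.2% from 59.1% for 10.5 against 6.5 dpp.

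In culture the members stayed low until D4 and rose by D16. At D4, 0 of 10 members were called against 6.5 dpp (10.8% of genes were called higher and 10.1% lower, and 1 member, Dpy19l2, had an unadjusted p under 0.05), and DESeq2 called 0 of 10 as well. Against the age-matched 10.5 dpp testes, 0 of 10 were called too, with 4.92% of genes called higher, 3.18% lower and 1 member at an unadjusted p under 0.05. Dpy19l2 came nearest, at 0.348, 0.384 and 0.333 CPM in the D4 libraries and at 1.39, 0.556 and 1.04 CPM at 10.5 dpp. Those groups did not overlap, and the log2 fold change was -1.41 ± 0.44 SE (adjusted p = 0.0542). DESeq2 called Dpy19l2 here (adjusted p = 0.0191), as did edgeR with library size alone (adjusted p = 0.0318). It was called, too, without 10.5 dpp replicate 2 (adjusted p = 0.0313), 22.5 dpp replicate 2 (0.0451), D16 replicate 1 (0.0423), D16 replicate 2 (0.0424) or D30 replicate 3 (0.0205). A fit of the 2 groups alone called Dpy19l2 (adjusted p = 0.00634), Spink2 (higher, 0.0244) and Zpbp (higher, 0.0434).

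From D4 to D16 all 10 members were called higher, against 18.4% of genes called higher and 5.48% lower. The rise rested on a pair of unlike libraries. In D16 replicate 1 every member was present, and in replicate 2 the members split: Acr, Acrbp, Spink2, Zpbp, Zpbp2 and Dpy19l2 were lower but plainly expressed, while Acrv1, Spaca1 and Spaca4 lay within the range of the 10 libraries of the earlier stages. Zp3r, at 0.350 CPM, lay above their highest value of 0.0728 CPM. Acr stood at 93.4 CPM in replicate 1 and 29.8 CPM in replicate 2, a ratio of 3.13. Dpy19l2, the least different, stood at 147 and 75.1 CPM, a ratio of 1.96. For Acrv1 the levels were 17.2 and 0.197 CPM (685 and 9 counts), for Zp3r 26.5 and 0.350 CPM (1055 and 16 counts), for Spaca4 12.0 and 0.0656 CPM (476 and 3 counts) and for Spaca1 28.9 and 2.49 CPM (1150 and 114 counts). So the D16 libraries of Spaca1 and Spaca4 overlapped those of D4, and those of the other 8 members did not. Without D16 replicate 1, the calls on Acrv1 (adjusted p = 0.71), Spaca1 (0.995) and Spaca4 (0.959) were lost and 7 remained, Zp3r among them. With the 6.5 dpp fresh replicate 1 kept, 2 were called (Spink2, adjusted p = 0.047, and Dpy19l2, adjusted p = 0.0475).

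In vivo, too, 1 library was low in these genes. In 22.5 dpp replicate 2 the 6 other members were lower than the mean of replicates 1 and 3 by a factor of 1.47 (Zpbp) to 1.98 (Acr). Spaca1 was lower by a factor of 2.59, Acrv1 by 4.36, Zp3r by 5.15 and Spaca4 by 8.15. The marker genes of elongating spermatids (Prm1, Prm2, Tnp1 and Tnp2 summed) were at 2.76 CPM in that library and at 22.7 and 32.1 CPM in the others. The spermatocyte markers Sycp1, Sycp2, Sycp3 and Hormad1 summed to 1677 CPM there, above the 1544 and 1244 CPM of the others, and the 5 Sertoli cell markers to 442 CPM, above 259 and 285 CPM. In D16 replicates 1 and 2 the elongating spermatid markers summed to 9.85 and 4.87 CPM. The spermatocyte markers summed to 1159 and 759 CPM there, and the Sertoli cell markers to 817 and 1269 CPM. The part of these cells in the result was not tested. In bulk tissue, fewer cells of a type and less RNA per cell cannot be told apart.

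Against 22.5 dpp testes, explants at D16 had lower fitted values for all 10 members, but only Acrbp and Dpy19l2 were called lower (2 of 10, with 11.8% of genes called lower and 14% higher). Acrbp had 109 and 46.7 CPM at D16 against 221.5, 137 and 304.5 CPM at 22.5 dpp. The groups did not overlap, and the log2 fold change was -1.68 ± 0.46 SE (adjusted p = 0.0147). Dpy19l2 at 147 and 75.1 CPM also lay below all 22.5 dpp libraries (log2 fold change -1.29 ± 0.41 SE, adjusted p = 0.0287). The third member without overlap was Zpbp, with 133 and 52.9 CPM against 134 to 200 CPM, and it was not called (-1.08 ± 0.45 SE, adjusted p = 0.0826). The 4 members that rose most after 22.5 dpp had wide intervals: for Acrv1 the log2 fold change lay between -3.41 and 0.57 and for Spaca4 between -2.60 and 1.61.

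The number called at D16 depended on single libraries. Without D16 replicate 1 all 10 members were called lower, among them Acrv1 (log2 fold change -6.91) and Zp3r (-6.40). Spaca4 had 3 counts in the remaining D16 library, at the floor, so no fold is given for it. Without D16 replicate 2 none of the 10 was called by edgeR (Acrbp -1.17 with adjusted p = 0.215, Dpy19l2 -0.86 with adjusted p = 0.305). In both cases D16 rested on 1 library, which was assumed to vary like the other groups. Without 22.5 dpp replicate 2, 5 members were called (Acr, Spink2 and Zpbp in addition), without 22.5 dpp replicate 1, 1 (Acrbp), without 22.5 dpp replicate 3, 0, and without D30 replicate 3, 4 (Acr and Zpbp in addition). DESeq2 called 4 (Acr, Acrbp, Zpbp and Dpy19l2), and a fit of the 2 groups alone called 0.

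From D16 to D30 no gain of a member was called in the fit, and some intervals were wide. The 95% interval of the log2 fold change ran from -0.35 to 3.52 for Acrv1 and from -0.23 to 2.68 for Spaca1. For Spaca4 it ran from -1.03 to 3.08, and for Dpy19l2, which was closer between the D16 libraries, from -0.39 to 1.19. The 10 fitted values were all positive, with a median of 0.55 on the log2 scale against 0.01 over all genes, and 0 of 10 were called (1.46% of genes were called higher and 0.332% lower). None had an unadjusted p under 0.05, and DESeq2 called 0. The 2 D16 libraries and the 4 D30 libraries overlapped for every member. Spaca4 had 13.4, 17.1 and 4.81 CPM in the fresh D30 libraries and 13.0 CPM in the CSF library, beside 12.0 and 0.0656 CPM at D16. Against D16 replicate 2 alone, that is without replicate 1, Acrv1 (log2 fold change 7.07, adjusted p = 0.00635), Zp3r (6.15, 0.00635), Spaca1 (3.92, 0.00954) and Spaca4 (adjusted p = 0.00679, with no fold given since D16 replicate 2 was at the floor) were called higher at D30. D16 was then 1 library, assumed to vary like the other groups.

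At D30 every member was below the age-matched 36.5 dpp testes. All 10 were called lower (10 of 10, beside 35% of all genes called lower and 32.4% higher), and in each of the 10 genes every D30 library lay below every 36.5 dpp library. The median log2 fold change of the members was -2.15, against -0.03 over all genes. The deficit was deeper in the 4 genes that rise late in vivo, -3.02 to -3.88, than in the other 6, -1.50 to -2.21. This split of the members was made after their values were seen and was given no test. The late rise and the deficit share the 36.5 dpp libraries, so a deeper deficit in these genes is partly built in.

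In the group of acrosin and its handling, Acr stood at 113, 100 and 39.3 CPM in the fresh D30 libraries, at 63.4 CPM in the CSF library and at 231 and 245 CPM at 36.5 dpp. It was 4.63-fold lower in the fit (log2 fold change -2.21 ± 0.43 SE, adjusted p = 2.23e-04). Acrbp had 164, 130 and 65.4 CPM fresh and 89.0 CPM after CSF against 221 and 399 CPM in vivo, with a log2 fold change of -2.10 ± 0.39 SE (adjusted p = 1.68e-04). Spink2 had 189.5, 246 and 75.8 CPM fresh and 186 CPM after CSF. Its in vivo libraries stood at 393.5 and 354 CPM, and the difference was -1.72 ± 0.46 SE on the log2 scale (adjusted p = 0.00307). The lowest library of each of the 3 genes was D30 fresh replicate 3.

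Among the matrix and zona-binding proteins, Acrv1 and Zp3r were furthest down. Acrv1 had 34.4, 29.7 and 14.6 CPM fresh and 24.1 CPM after CSF, against 135 and 212 CPM at 36.5 dpp. It was 10.4-fold lower (log2 fold change -3.39 ± 0.83 SE, adjusted p = 0.00160). Zp3r had 31.2, 28.1 and 14.1 CPM fresh and 22.3 CPM after CSF, against 148 and 207 CPM, and was 11.4-fold lower (-3.52 ± 0.84 SE, adjusted p = 0.00141). For both genes the D30 libraries overlapped those of 22.5 dpp, where Acrv1 reached 27.9 CPM and Zp3r 34.96 CPM. Zpbp and Zpbp2 were less affected. Zpbp ran from 48.0 to 168.5 CPM over the 4 D30 libraries (log2 fold change -1.79 ± 0.40 SE, adjusted p = 7.25e-04). Zpbp2 ran from 85.5 to 331 CPM, and its lowest in vivo library, at 349 CPM, was close to the highest D30 library (-1.58 ± 0.50 SE, adjusted p = 0.00975). The call on Zpbp2 was lost without 36.5 dpp replicate 1 (adjusted p = 0.0843) and with library size alone (adjusted p = 0.0787).

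The membrane proteins showed the same division from the anchor. Spaca4 had the deepest deficit of all members, 4.81 to 17.1 CPM at D30 against 97.5 and 134 CPM in vivo, which was 14.7-fold in the fit (log2 fold change -3.88 ± 0.91 SE, adjusted p = 0.00116). Spaca1 had 40.3, 43.5 and 20.2 CPM fresh and 40.6 CPM after CSF, against 139 and 239 CPM (-3.02 ± 0.63 SE, adjusted p = 4.53e-04). Dpy19l2 had the smallest deficit, with 174, 191 and 70.9 CPM fresh and 135 CPM after CSF against 263 and 259 CPM. It was 2.82-fold lower (-1.50 ± 0.36 SE, adjusted p = 0.00132). D30 fresh replicate 3 was the lowest of the 4 D30 libraries in all 10 genes, and without it all 10 members were still called. With the 6.5 dpp fresh replicate 1 kept, the fitted changes stayed between -1.50 and -3.88, and 1 of 10 was called (Spaca1, adjusted p = 0.0126).

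The makeup of the 10 genes within a library does not depend on the scaling. Acrv1, Zp3r, Spaca1 and Spaca4 together made 22.6% and 29.1% of the summed CPM of the 10 genes at 36.5 dpp, and 9.22%, 10.7%, 10.7% and 12.3% in the D30 libraries. At 22.5 dpp the share was 6.46%, 3.15% and 6.57%, and at D16 8.16% and 0.932%. All D30 libraries thus lay above all 22.5 dpp libraries and below both 36.5 dpp libraries. The 4 genes were grouped after their values were seen, so these shares are a description.

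**Figure D3:**
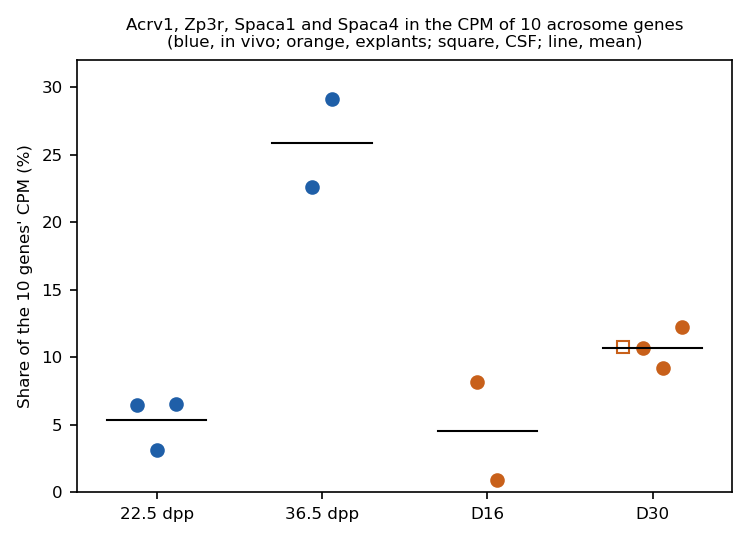
Share (%) of the summed CPM of the 10 genes that came from Acrv1, Zp3r, Spaca1 and Spaca4, for each library at 22.5 dpp, 36.5 dpp, D16 and D30, with the CSF library as an open square and the group mean as a line. The 4 D30 libraries lie between 9.22% and 12.3%, under the 22.6% and 29.1% of 36.5 dpp.

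Other cells and germ cell stages moved with these levels. The elongating spermatid markers summed to 331 to 1601 CPM in the D30 libraries and to 16209 and 21200 CPM at 36.5 dpp, with none of the 4 genes at 0, and D30 replicate 3 held the 331 CPM. The 5 Sertoli cell markers summed to 813 to 1507 CPM at D30 and to 96.4 and 112 CPM at 36.5 dpp, and the 4 peritubular and vessel markers to 940 to 1519 CPM and to 137 and 237 CPM. The 4 spermatocyte markers ran from 385 to 1132 CPM at D30 and from 535 to 737 CPM at 36.5 dpp, so these groups overlapped. The 5 Leydig cell markers were lower at D30 (317 to 571 CPM) than at 36.5 dpp (1549 and 1925 CPM). Summed spermatogonia markers (146 to 222 CPM against 52.6 and 63.3 CPM) and macrophage markers (91.3 to 145 CPM against 34.6 and 43.0 CPM) were higher at D30. In the fit, 2 of 4 spermatogonia markers and 3 of 4 macrophage markers were called higher, beside 32.4% of all genes. The sums are on library totals, where the median log2 fold change of all genes was 0.60. The part of these shifts in the levels of the members was not tested.

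Whether the steps themselves differed between culture and testis was tested as a difference of contrasts. For the step from D4 to D16 against that from 10.5 to 22.5 dpp, 0 of 10 members were called (5.26% of genes were called with a larger step in culture and 4.36% with a smaller one, and 3 members had an unadjusted p under 0.05). Spink2 came nearest, at -2.06 ± 0.77 SE on the log2 scale (adjusted p = 0.0967). DESeq2 called Spink2 (adjusted p = 0.0428), and a fit of those groups alone called Zpbp (0.0433). Without D16 replicate 1, 6 members were called (Acrbp, Spink2, Acrv1, Zpbp, Zpbp2 and Spaca1), and without 22.5 dpp replicate 2, 2 were (Acrbp and Spink2).

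For the step from D16 to D30 against that from 22.5 to 36.5 dpp, 0 of 10 members were called as well, with 11.5% of genes called with a larger step in culture and 8.63% with a smaller one. DESeq2 called 0, and 1 member, Spaca4, had an unadjusted p under 0.05. The difference for Spaca4 was -3.39 ± 1.32 SE on the log2 scale (adjusted p = 0.0767). The 4 late genes were grouped after their values were seen. Without D16 replicate 2, the library in which they were low, their fitted step was smaller in culture. The difference was -4.38 ± 0.91 SE for Spaca4, -3.39 ± 0.82 SE for Zp3r, -2.95 ± 0.79 SE for Acrv1 and -2.78 ± 0.73 SE for Spaca1. Without D16 replicate 1 instead, the difference had the other sign: 3.53 for Acrv1, 2.89 for Zp3r and 0.81 for Spaca1. Spaca4 is given no fold there, since D16 replicate 2 was at the floor. In both cases D16 was 1 library that was assumed to vary like the other groups. So the direction depended on which D16 library was kept. The shares of all calls were again moved by the scaling: 57.0% of the calls were larger steps in culture with TMM, 43.2% with RLE and 82.1% with library size alone, and for the earlier step 54.7%, 46.3% and 73.2%.

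Per length of transcript the order of the members at D30 was closer to that of 22.5 dpp than to that of 36.5 dpp. In RPKM, that is CPM per kilobase of exon, Spink2 was highest at 36.5 dpp (mean 474 RPKM), followed by Zpbp2 (256), Spaca4 (164), Acr (152) and Spaca1 (118.5). Acrbp (94.7), Zp3r (83.5), Dpy19l2 (75.9), Zpbp (61.4) and Acrv1 (47.6) came after them. At D30 Spink2 (221) and Zpbp2 (132) still led, followed by Acr (50.4), Dpy19l2 (41.4), Acrbp (34.2), Zpbp (27.3) and Spaca1 (22.6), and Spaca4 (17.1), Zp3r (11.3) and Acrv1 (7.05) closed the order. The order of the means at D30 was identical to that at D16, and it differed from that at 22.5 dpp in that Spaca4 and Zp3r changed places. The order in D16 replicate 2 alone was different. There Zp3r (0.165 RPKM) stood above Spaca4 (0.0927 RPKM), and Dpy19l2 (21.8 RPKM) above Acr (19.0 RPKM). By its mean, Spaca4 had rank 9 at 22.5 dpp, 3 at 36.5 dpp and 8 at both D16 and D30. The order of the means thus shifted in vivo after 22.5 dpp and not between D16 and D30. The D16 mean of Spaca4 came almost wholly from replicate 1, at 16.9 RPKM, so this holds for the means and not for each D16 library. The neighbours in this order overlapped between libraries for Spaca4, Acr and Spaca1 at 36.5 dpp (138 to 189.5, 147 to 157 and 87.2 to 150 RPKM). At D30 Acr (25.1 to 72.2 RPKM) and Spaca4 (6.80 to 24.1 RPKM) did not overlap. Spink2 and Zpbp2 overlapped at D30 (96.2 to 312 and 50.8 to 196.5 RPKM) and not at 36.5 dpp (449 to 499 and 207 to 304.5 RPKM).

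Other genes of the acrosome were read from 4 lists of 46 genes, all of which passed the filter on low counts. Between 36.5 and 22.5 dpp, 35 of 46 were called higher and 2 lower (Gopc and Vps54), beside 23.3% of all genes higher and 27.5% lower. At D30 against 36.5 dpp 44 of 46 were called lower and 1 higher, beside 35% and 32.4% of all genes. At D16 against 22.5 dpp 13 of 46 were called lower and 0 higher (11.8% and 14% of all genes). At D4 against 10.5 dpp 1 of 46 was called, higher (4.92% of all genes). From D16 to D30, where 1.46% of all genes were called higher, 3 of 46 were, Ccin (log2 fold change 4.58, adjusted p = 0.0309), a protein of the perinuclear theca, Prss37 (6.78, 0.0140) and Prss55 (5.04, 0.0290). Those 3 genes, Gopc, Fam209 and Spata16 were singled out after their values were seen.

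The list of the acroplaxome and perinuclear theca, the plate and shell between acrosome and nucleus, had a median log2 fold change of -3.83 at D30 against 36.5 dpp with 9 of 9 called lower, and -1.29 at D16 against 22.5 dpp with 0 of 9 called. The other acrosomal enzymes (11 genes) had medians of -3.45 with 11 called lower and -1.24 with 2 called lower. The other matrix and membrane proteins (12 genes) had medians of -3.45 with 12 called lower and -1.02 with 3 called lower. The list of acrosome biogenesis and Golgi traffic had a median of -0.91 at D30 with 12 of 14 called lower. It is mixed, from Fam209 at -3.95 and Spata16 at -1.69, which had risen by 5.78 and 11.2 on the log2 scale between 10.5 and 22.5 dpp, to Gopc at 0.23 (not called) and Vps54 at 1.04. The lists were not tested against each other. At D16 it had a median of -0.68 and 8 of 14 called lower. The medians over all genes were -0.03 at D30 and -0.08 at D16.

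**Figure D4:**
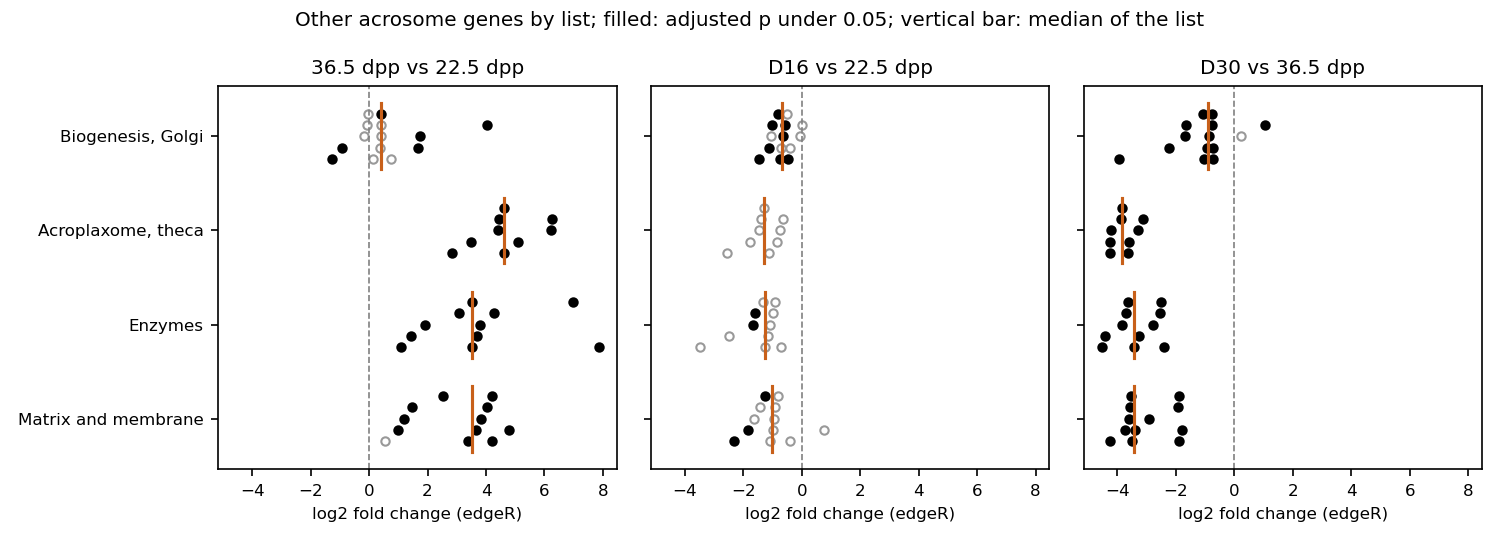
Log2 fold change of the genes of 4 other acrosome lists in 3 comparisons, filled black where the adjusted p was under 0.05, with the median of each list as an orange bar. At D30 the medians of 3 lists lie between -3.83 and -3.45, while that of biogenesis and Golgi traffic lies at -0.91.

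By the rule for naming, the largest called changes at D30 against 36.5 dpp were lower levels of Prss37, a serine protease-like protein (10.4 ± 6.72 CPM, n = 4, against 158 ± 39.4 CPM, n = 2, log2 fold change -4.54 ± 0.80 SE, adjusted p = 1.38e-04), and of Prss55, a related serine protease (10.5 ± 7.0 against 145 ± 19.0 CPM, -4.41 ± 0.81 SE, adjusted p = 1.40e-04). Vps54, a subunit of a complex that tethers vesicles to the Golgi, was the single gene called higher (65.1 ± 4.08 against 20.4 ± 2.35 CPM, 1.04 ± 0.17 SE, adjusted p = 5.97e-05). Vps54 also fell in vivo from 22.5 to 36.5 dpp, by 1.26 on the log2 scale (adjusted p = 3.43e-05). At D16 against 22.5 dpp the largest called changes were lower levels of Zan, the zona-binding protein zonadhesin (2.59 ± 2.7 CPM, n = 2, against 11.6 ± 3.95 CPM, n = 3, -2.33 ± 0.65 SE, adjusted p = 0.0169), and of Pkdrej, a membrane protein of the sperm head (28.2 ± 15.8 against 89.5 ± 26.8 CPM, -1.84 ± 0.54 SE, adjusted p = 0.0207). At D4 against 10.5 dpp the single called gene was Spesp1, a protein of the equatorial segment, with 2.82 ± 0.368 against 0.969 ± 0.0214 CPM (n = 3 in each group, log2 fold change 1.63 ± 0.39 SE, adjusted p = 0.0139).

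The genes whose course was most like that of the members were sought over the 21 libraries, by Pearson's r of log2(CPM + 0.5) with the mean of the members' standardized values, among 17302 genes with at least 1 CPM in the mean of a group. The 5 highest non-members were Prss40 (r = 0.998), Prss46 (0.998), 4930448E22Rik (0.997), Gtsf2 (0.997) and Zbbx (0.997). Prss40 and Prss46 belong to the testis serine proteases. Prss40 averaged 19.0 CPM at 22.5 dpp, 51.7 CPM at 36.5 dpp, 7.30 CPM at D16 and 12.2 CPM at D30. The members themselves had r between 0.947 (Spaca4) and 0.988 (Acr) with their own mean, which contains them, and 1258 non-members reached an r of 0.95. The points share the stage of the testis and the depth of each library, so this likeness is a description.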

How the data were processed

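The members and gene lists were chosen with earlier results of these data known. Values are raw counts per gene, deposited by the authors, who made them from stranded polyA libraries read as single ends of 50 bases with STAR 2.7.3a and HTSeq 0.12.4 (intersection-nonempty mode) on GRCm38; the strand setting of HTSeq is not given in the sources used here. Of 27466 NCBI gene identifiers, 27373 matched the annotation used for symbols. CPM were computed on library totals, RPKM on the exon union of GENCODE M21. Groups were compared in edgeR 4.0.16 (R 4.3.3), after filterByExpr and with TMM scaling, by quasi-likelihood F tests, adjusted over 19255 genes by Benjamini-Hochberg, in 1 fit of 21 libraries in 7 groups by stage, frozen with fresh. All 10 members passed the filter. The SE of a log2 fold change was its size divided by the square root of F, and intervals are 95%. The method was tested on simulated counts with known changes at D16 only and equal means in the other groups. Those counts held no library unlike its group across many genes and no shift of most genes between groups. So the test does not cover these features of the data. DESeq2 1.42.0, other scalings, filters, groupings and leaving out each library were alternatives.

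Named genes were the 10 members, the 2 called genes with the largest change in each direction of the 46 other acrosome genes in each age-matched comparison, and the 5 genes most like the members. The libraries held 28351546 to 69029328 counted reads each, and the precision also depended on the spread between libraries. Acrbp shares 975 exon bases with Gm44597 on its strand and 90 with the opposite 4930557K07Rik, and Zpbp shares 223 with the opposite Spata48, so reads there may be split or lost. Plots were drawn with matplotlib 3.10.9 in Python 3.11.15.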

Additional observations from a re-analysis of the deposited data

Results flagged for a closer look

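In the left-out library labelled 6.5 dpp fresh replicate 1, all 10 members were above every other library of that age. Acr was at 84.2 CPM, Acrbp at 133.6 CPM, Spink2 at 142 CPM, Acrv1 at 19.0 CPM and Zp3r at 25.2 CPM. Zpbp was at 107 CPM, Zpbp2 at 171.5 CPM, Spaca1 at 26.6 CPM, Spaca4 at 5.85 CPM and Dpy19l2 at 162 CPM, where the other 6.5 dpp libraries ran from 0.494 to 0.793 CPM. Acrv1, Zp3r, Spaca1 and Spaca4 made 8.73% of the summed CPM of the 10 genes in that library and 8.16% in D16 replicate 1.

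Within the 2 groups of 4 libraries, 20 sets of values were examined for a library far from the rest, and 1 was found, Spaca1 in D30 fresh replicate 3 at 20.2 CPM beside 40.3 to 43.5 CPM. The limit used (Dixon's at 95%) is one that about 1 in 20 independent sets would pass by chance, and these 20 sets are not independent, since they are 10 genes in the same libraries and D30 fresh replicate 3 was lowest in all 10.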

How the results depend on the processing

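The counts of called members were 10 for 22.5 against 10.5 dpp and 0 for 10.5 and for D4 against 6.5 dpp under every alternative run. At the thresholds of an absolute log2 fold change of 2 and an adjusted p of 0.001, 36.5 against 22.5 dpp gave 0, D16 against 22.5 dpp gave 0 and D30 against 36.5 dpp gave 3. Without that fold limit, at an adjusted p under 0.05, these 3 comparisons gave 6, 2 and 10. Keeping the 6.5 dpp fresh replicate 1 then made these counts 1, 0 and 1, and took D16 against D4 from 10 to 2. For D4 against 10.5 dpp, library size alone gave 1, DESeq2 1 and the 2 groups alone 3. For D16 against 22.5 dpp, DESeq2 gave 4 and the groups alone 0. For the difference of the steps to 22.5 dpp and D16, DESeq2 and the groups alone gave 1 each.

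Leaving out 1 library at a time gave 4 to 7 for 36.5 against 22.5 dpp, 7 to 10 for D16 against D4, 0 to 4 for D30 against D16, 0 to 1 for D4 against 10.5 dpp, 0 to 10 for D16 against 22.5 dpp, 9 to 10 for D30 against 36.5 dpp, 0 to 6 for the earlier and 0 to 4 for the later difference of steps. A replicate block gave 5 called members where 36.5 was set against 22.5 dpp, with 2 at D16 against 22.5 dpp and 10 at D30 against 36.5 dpp, and changed no other count. Same-numbered libraries of different groups had correlated deviations above 0.1 in 15 of 52 pairs, and other-numbered ones in 24 of 102 pairs. The deviations of a small group from its mean add up to 0, so this check cannot tell whether the replicate numbers paired the samples. Of the single-gene values, none that was called in the main fit or in the alternative changed sign between them. A further 73 values, called in neither, had another sign than in the main fit. Alternatives could also differ from each other: the later difference of steps for Acrv1 ran from -2.95 to 3.53.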

Other observations

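Freezing could be described only by values, with 1 CSF library at D30 and 1 fresh library at 6.5 dpp. The D30 CSF library lay within the range of the 3 fresh D30 libraries for all 10 members. At 6.5 dpp the fresh library lay within the range of the 3 CSF libraries for 5 members, above it for 3 (Spink2, Zp3r and Dpy19l2) and below it for 2 (Acr and Spaca1). Spaca1 was at 1.44 CPM fresh and at 1.93 to 5.01 CPM after CSF.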
